A study of Drosophila melanogaster with 6 samples.

Results

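The genes described here are the 8 genes for the core and accessory subunits of Polycomb repressive complex 2 (PRC2) in the fly: *Pcl*, *Jarid2*, *jing*, *E(z)*, *Su(z)12*, *esc*, *escl* and *Caf1-55*. They were chosen by gene symbol out of 17489 genes in each count file, and all 8 were found. Ribosome-associated mRNAs were isolated by Translating mRNA Affinity Purification (TRAP), which pulls down ribosomes that carry a tagged Rpl3 protein, and were sequenced and counted per gene. Male *Gr5a>UAS-Rpl3-3XFLAG* flies, in which the *Gr5a* driver directs the tag to sweet-taste neurons, ate food with 30% sucrose (sugar diet, SD + OSMI) or 5% sucrose (control diet, CD + OSMI) for 7 days, from day 5 to day 12. The flies had been collected as adults on day 2. OSMI-1, which inhibits the enzyme O-GlcNAc Transferase (OGT), was present in either food at 10 µM, from a solution in 10% DMSO. There were 3 replicates of 300 pooled heads on each diet, numbered 4 to 6 on SD + OSMI and 1 to 3 on CD + OSMI. Every library came from flies treated with OSMI, so the comparison is between diets under OGT inhibition and not between inhibited and uninhibited flies.

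PRC2 places methyl groups on lysine K27 of histone H3 (H3K27), a mark that keeps developmental genes silent. *E(z)* encodes the methyltransferase, *Su(z)12* a scaffold that the enzyme needs, *esc* and its paralog *escl* a WD-repeat protein that binds the methylated histone tail, and *Caf1-55* a histone-binding WD-repeat protein that several other chromatin complexes share. Accessory subunits split the complex into 2 forms: Pcl marks PRC2.1, and Jarid2 and jing mark PRC2.2. The study treats Pcl as the recruiter of PRC2.1 in the *Gr5a+* neurons and asks how OGT and PRC2.1 act together, so the question for these genes is whether their own ribosome-associated mRNA differed between the diets.

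Libraries held 13324513 to 16122009 counts on SD + OSMI and 15252054 to 15263033 counts on CD + OSMI. Genes of the mitochondrial ribosomal RNAs took 1.60% of the counts in SD + OSMI replicate 6, against 0.266% to 0.351% in the other libraries. *Gr5a*, the receptor gene of the tagged neurons, was at 0.689 to 0.950 CPM (counts scaled to a common library size, with TMM factors) on SD + OSMI and 0.549 to 2.00 CPM on CD + OSMI. The photoreceptor opsin gene *ninaE* was at 16352 to 19925 CPM on SD + OSMI and 17707 to 23441 CPM on CD + OSMI. The defining receptor genes of the labelled cells were therefore near the limit of detection, and the libraries held much RNA of other head cells. In such bulk samples fewer cells of a type and less RNA per cell cannot be told apart. The study reported sweet receptor genes as enriched, and bitter receptor genes as depleted, in this fraction relative to its input. No input library was among those used here, so that enrichment was not examined. Summed over 50 testis and sperm genes, the level was 3049 to 4624 CPM on SD + OSMI and 1965 to 2679 CPM on CD + OSMI. Over 35 accessory gland and ejaculatory duct genes it was 224 to 412 CPM on SD + OSMI and 111 to 176 CPM on CD + OSMI, and over 15 fat body genes 6725 to 8481 CPM and 9850 to 12173 CPM. None of these 3 sums overlapped between the diets. Most of the fat body sum was *apolpp*, with means of 6255 CPM on SD + OSMI and 8191 CPM on CD + OSMI. Of the 13 fat body genes tested, the estimate was lower on SD + OSMI for 12 and higher for 1. In the testis sum *bol* went the other way, at means of 519 CPM on SD + OSMI and 565 CPM on CD + OSMI. Of the 46 testis and sperm genes tested, the estimate was higher on SD + OSMI for 42 and lower for 4. The sums of 9 neuronal, 14 photoreceptor and 9 early germline genes did overlap. They were 11421 to 14051, 26909 to 32014 and 1902 to 2324 CPM on SD + OSMI, and 13146 to 14778, 29312 to 36914 and 1875 to 2303 CPM on CD + OSMI. The early germline sum was almost all *tud*, with means of 2059 CPM on SD + OSMI and 2076 CPM on CD + OSMI. That sum therefore says little of the other early germline genes. Of the 5 early germline genes tested, the estimate was higher on SD + OSMI for 4 and lower for 1. Among the 4 was *bgcn*, with means of 10.6 CPM on SD + OSMI and 4.99 CPM on CD + OSMI. Over 10 glial genes the sum was 1830 to 1963 CPM on SD + OSMI and 2039 to 2164 CPM on CD + OSMI, without overlap. *Gs2* had the largest part in it, with means of 676 CPM on SD + OSMI and 799 CPM on CD + OSMI. The estimate was lower on SD + OSMI for 9 of these genes and higher for 1. That gene was *moody*, with means of 115 CPM on SD + OSMI and 109 CPM on CD + OSMI, without overlap. Over 9 sweet receptor genes it was 3.09 to 5.19 CPM and 2.68 to 5.75 CPM, and over 10 bitter receptor genes 1.84 to 2.69 CPM and 2.01 to 2.52 CPM.

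No PRC2 gene passed the test for a difference between the diets. All 8 had at least 10 counts in every library and were tested among 11915 genes with edgeR's quasi-likelihood test, at a Benjamini-Hochberg adjusted p under 0.1. Over all tested genes, 9.09% passed this threshold, 6.91% as higher and 2.18% as lower on SD + OSMI. None of the 8 passed it, whether edgeR, DESeq2 or limma-voom was used, and none had an unadjusted p under 0.05 by edgeR, against 21.4% of all tested genes. In none of the 8 did the libraries of one diet lie wholly above those of the other, against 24.8% of all tested genes. The median log2 fold change (SD + OSMI over CD + OSMI) of the 8 genes was −0.089, while it was −0.0027 over all tested genes. It was −0.12 over 9 neuronal genes, −0.084 over 10 glial genes and 0.85 over 46 testis and sperm genes.

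**Figure D1:**
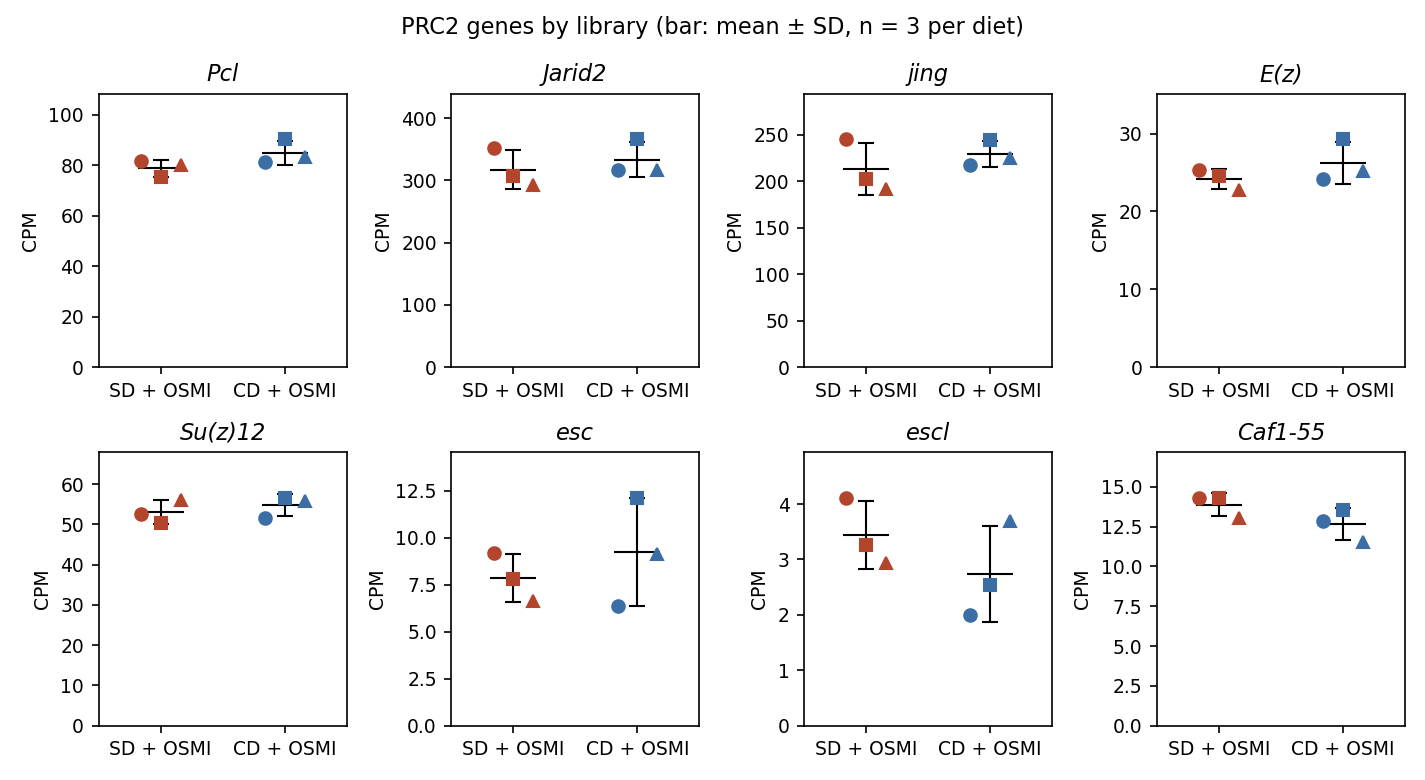
CPM of the 8 PRC2 genes in each library, SD + OSMI (red, left) and CD + OSMI (blue, right), on linear axes that start at 0. Circles, squares and triangles are replicates 4, 5 and 6 on SD + OSMI and 1, 2 and 3 on CD + OSMI, and bars are means ± SD (n = 3 per diet). The diets overlap in every panel, and CD + OSMI replicate 2 (square) is the highest library for 5 of the 8 genes.

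*Pcl* (Polycomblike), the gene of the PRC2.1 subunit, lies on chromosome arm 2R. It was at 81.6, 75.1 and 79.9 CPM on SD + OSMI (replicates 4, 5 and 6), against 81.0, 90.3 and 83.3 CPM on CD + OSMI (replicates 1, 2 and 3). The diets overlapped, because SD + OSMI replicate 4 was above CD + OSMI replicate 1. The counts behind these levels were 1061 to 1316 per library. The log2 fold change was −0.11 (SE 0.08, adjusted p = 0.504 from edgeR), with a 95% interval from a fold of 0.821 to one of 1.05.

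*Jarid2* and *jing*, the genes of the PRC2.2 subunits, were the most abundant members by CPM. *Jarid2* (chromosome arm 3L, 9477038 to 9486530, + strand, BDGP6) was at 352, 307 and 292 CPM on SD + OSMI, against 317, 367 and 317 CPM on CD + OSMI. Its log2 fold change was −0.07 (SE 0.10, adjusted p = 0.708 from edgeR), with a 95% interval from a fold of 0.825 to one of 1.09. *jing*, on 2R, was at 245, 203 and 192 CPM on SD + OSMI, against 218, 245 and 226 CPM on CD + OSMI. Its log2 fold change was −0.11 (SE 0.10, adjusted p = 0.582 from edgeR), and its 95% interval ran from a fold of 0.804 to one of 1.07. In both genes SD + OSMI replicate 4 and CD + OSMI replicate 2 stood highest and SD + OSMI replicate 6 lowest. For these genes counting error was a small part of the spread: the coefficient of variation of *Jarid2* was 9.82% on SD + OSMI and 8.51% on CD + OSMI, while counting alone gives 1.45% and 1.41%.

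Of the core subunits, *E(z)* and *Su(z)12* also stayed within a narrow interval. *E(z)* (3L, 10634575 to 10638130, − strand) was at 25.3, 24.6 and 22.7 CPM on SD + OSMI, against 24.2, 29.3 and 25.2 CPM on CD + OSMI. Its log2 fold change was −0.12 (SE 0.12, adjusted p = 0.619 from edgeR; 95% interval of the fold 0.773 to 1.10). Apart from CD + OSMI replicate 2, which was highest, the libraries of the diets were intermixed. *Su(z)12* (3L, 19918242 to 19923462, − strand) was at 52.6, 50.3 and 56.1 CPM on SD + OSMI, against 51.7, 56.7 and 55.9 CPM on CD + OSMI. Its log2 fold change was −0.05 (SE 0.09, adjusted p = 0.813 from edgeR; 95% interval of the fold 0.848 to 1.10), the smallest in size of the 8 genes.

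*Caf1-55* (3R, 15225576 to 15227564, + strand), whose protein also serves in chromatin assembly and in repressor complexes, was at 14.3, 14.3 and 13.0 CPM on SD + OSMI, against 12.8, 13.5 and 11.5 CPM on CD + OSMI. SD + OSMI replicates 4 and 5 were above every CD + OSMI library, while replicate 6 was below CD + OSMI replicate 2. The log2 fold change was 0.14 (SE 0.15, adjusted p = 0.656 from edgeR; 95% interval of the fold 0.878 to 1.37). Its coefficient of variation, 5.32% on SD + OSMI and 7.91% on CD + OSMI, was close to that of counting alone, 6.92% and 7.23%.

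The paralogs *esc* and *escl* had the fewest counts and the widest intervals. In flies *esc* is best known for its role in the embryo, and *escl* for its overlapping role later in development. *esc* (2L, 11827204 to 11829405, − strand) was at 9.18, 7.83 and 6.62 CPM on SD + OSMI, against 6.39, 12.1 and 9.15 CPM on CD + OSMI, from 88 to 177 counts per library. Both the lowest and the highest library were on CD + OSMI. The log2 fold change was −0.22 (SE 0.23, adjusted p = 0.628 from edgeR; 95% interval of the fold 0.607 to 1.21), and without CD + OSMI replicate 2 it was 0.022. *escl* (2L, 11990927 to 11992848, + strand) was at 4.12, 3.26 and 2.94 CPM on SD + OSMI, against 2.00, 2.54 and 3.70 CPM on CD + OSMI, from 31 to 65 counts per library. Here CD + OSMI replicate 3 was above 2 of the 3 SD + OSMI libraries, so that the diets overlapped. The log2 fold change was 0.32 (SE 0.32, adjusted p = 0.608 from edgeR; 95% interval of the fold 0.778 to 2.02). For neither paralog did the difference between diets pass the test. The coefficient of variation of *esc* was 16.3% on SD + OSMI and 31.2% on CD + OSMI, while counting alone gives 9.15% and 8.48%.

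Across the 8 genes, CD + OSMI replicate 2 was the highest library for 5 (*Pcl*, *E(z)*, *Su(z)12*, *esc* and *Jarid2*) and SD + OSMI replicate 4 for the other 3 (*jing*, *escl* and *Caf1-55*). These 2 libraries had the highest neuronal sum of each diet, 14778 CPM in CD + OSMI replicate 2 and 14051 CPM in SD + OSMI replicate 4, and the lowest testis sum of each diet, 1965 and 3049 CPM. SD + OSMI replicate 6 was lowest for *E(z)*, *Jarid2* and *jing*, and SD + OSMI replicate 5 for *Pcl* and *Su(z)12*. Some highest places were near ties with the next library. They were 56.7 over 56.1 CPM for *Su(z)12*, 245.4 over 244.7 CPM for *jing* and 14.31 over 14.28 CPM for *Caf1-55*. With the testis sum as a covariate beside diet no PRC2 gene passed the threshold, and the log2 fold changes of all 8 were above 0. The testis sum did not overlap between the diets, so its part and that of diet cannot be told apart. The part of the neuronal sum was not tested.

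A test of practical equivalence, taken from the code of the study, asked which genes changed by less than 1.5-fold between the diets (q under 0.05). By this test 6 of the 8 genes were practically equivalent on SD + OSMI and CD + OSMI: *Jarid2* (q = 7.27e-06), *Su(z)12* (q = 1.90e-05), *Pcl* (q = 2.99e-05), *jing* (q = 6.16e-05), *E(z)* (q = 0.00332) and *Caf1-55* (q = 0.0148), with standard errors from DESeq2 on 3 libraries per diet. The exceptions were *esc* (q = 0.157) and *escl* (q = 0.340 from the same test). Over all tested genes 47.1% were practically equivalent, and the share followed the counts. It was 82.9% of the 5962 genes with at least the summed counts of *Caf1-55* (1201), the lowest of the 6 equivalent members, and 3.86% of the 4821 genes with at most the summed counts of *esc* (775). For a limit of 2-fold all 8 genes were equivalent, with q = 0.00307 for *esc* and q = 0.0468 for *escl* (DESeq2 standard errors), and for a limit of 1.2-fold none was. Leaving out CD + OSMI replicate 2 or SD + OSMI replicate 6 left 5 equivalent genes, with q = 0.0598 and q = 0.0563 for *Caf1-55* (DESeq2 standard errors). The libraries held much RNA of other head cells, so neither this test nor the diet test speaks for the sweet-taste neurons alone.

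**Figure D2:**
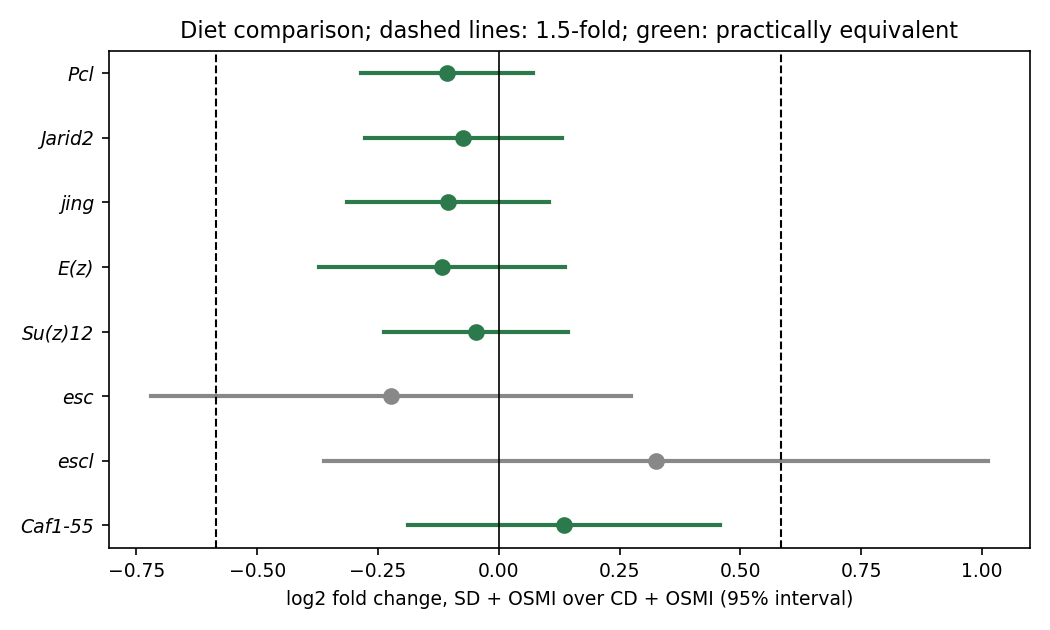
Log2 fold change of each PRC2 gene, SD + OSMI over CD + OSMI, from edgeR, with its 95% interval (n = 3 libraries per diet). Dashed lines mark a 1.5-fold change in either direction, and green marks the 6 genes that were practically equivalent within it. The intervals of those 6 genes lie between the dashed lines, while those of *esc* and *escl* (grey) reach past one of them.

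Levels of different genes were compared as CPM per kilobase of exons, since long genes collect more reads. On this scale the order was *Jarid2* (38.5 ± 3.33), *jing* (23.7 ± 2.34), *Pcl* (18.7 ± 1.13), *Su(z)12* (13.2 ± 0.657), *E(z)* (9.46 ± 0.827), *Caf1-55* (7.25 ± 0.567), *esc* (5.02 ± 1.25) and *escl* (1.71 ± 0.426 CPM per kb; SD, n = 6 libraries). In every library each gene was above the next one in this order. Over the 6 libraries the ranges of neighbours overlapped for *jing* and *Pcl* and for *Caf1-55* and *esc*, and did not for the other 5 pairs of neighbours. The accessory subunits therefore stood above all core subunits in level per length. Among tested genes with a known length, *Jarid2* was at percentile 88.4, *Pcl* at 73.3, *E(z)* at 55.5 and *escl* at 14.9. The median of all these genes was 7.84 CPM per kb, that of the 8 PRC2 genes 11.3 and that of 10 genes of PRC1 and its variants, the Polycomb complex that binds the PRC2 mark, 14.4 CPM per kb. All 8 genes kept their place with the longest transcript in place of merged exons (*jing* was then at 29.5 CPM per kb).

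**Figure D3:**
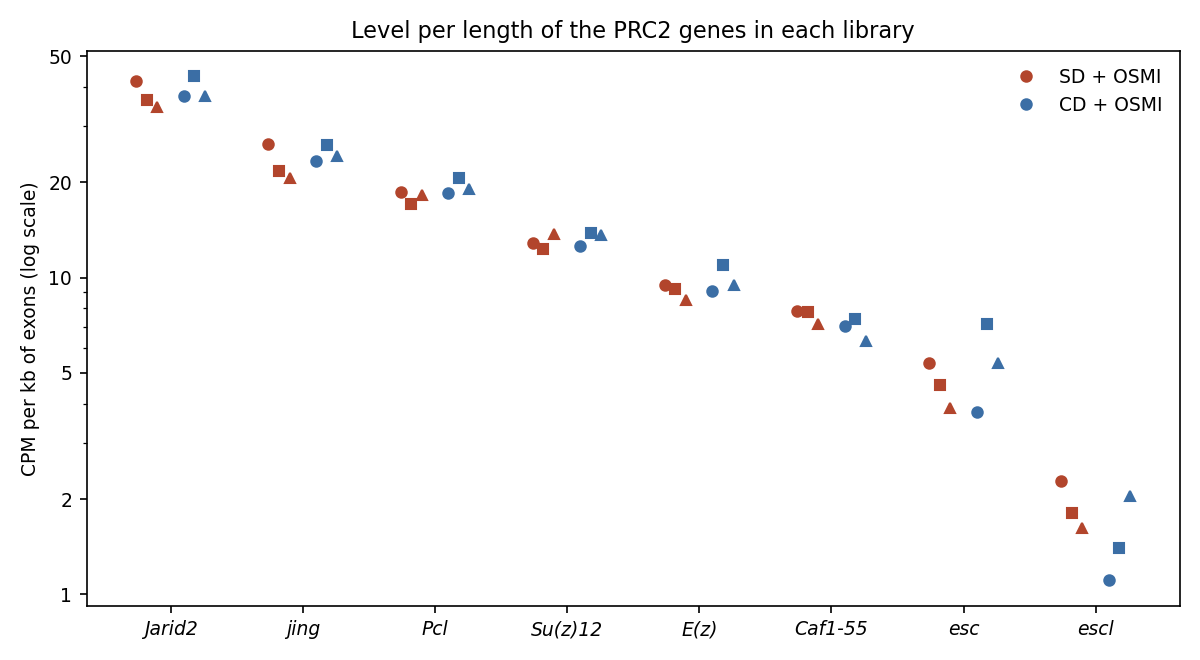
Level per length of the 8 PRC2 genes in each library, in CPM per kilobase of merged exons on a log axis, SD + OSMI (red, left) and CD + OSMI (blue, right). Genes run in the order of their mean over the 6 libraries, from *Jarid2* at 38.5 to *escl* at 1.71 CPM per kb, and circles, squares and triangles are replicates 4 to 6 and 1 to 3.

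Ratios within a library do not depend on its scaling factor, and 4 of the 5 ratios computed overlapped between the diets. *Pcl* over *Jarid2*, the subunit of PRC2.1 against one of PRC2.2, was 0.447, 0.472 and 0.527 on SD + OSMI, against 0.493, 0.476 and 0.507 on CD + OSMI. *Pcl* over *E(z)* was 1.99 ± 0.140 on SD + OSMI and 1.97 ± 0.0860 on CD + OSMI (SD, n = 3 each). *Su(z)12* over *E(z)* was 1.43 ± 0.152 on SD + OSMI and 1.36 ± 0.0943 on CD + OSMI (SD, n = 3 each). In these 3 ratios the means of the diets differed by less than the SD on SD + OSMI. The sum of *esc* and *escl* over *E(z)* was 0.716 ± 0.0834 on SD + OSMI and 0.698 ± 0.141 on CD + OSMI (SD, n = 3 each).

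The ratio that did not overlap was that of the paralogs. *esc* over *escl* was 2.37, 2.55 and 2.40 on SD + OSMI, against 3.39, 5.08 and 2.63 on CD + OSMI. The gap between the diets, from 2.55 to 2.63, was far smaller than the spread on CD + OSMI, whose SD was 1.25. With 3 libraries against 3, the smallest two-sided p of an exact permutation test is 0.1, and no test of the ratios was run. The coefficient of variation of *escl* was 17.8% on SD + OSMI and 31.6% on CD + OSMI, while counting alone gives 13.9% and 15.5%.

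**Figure D4:**
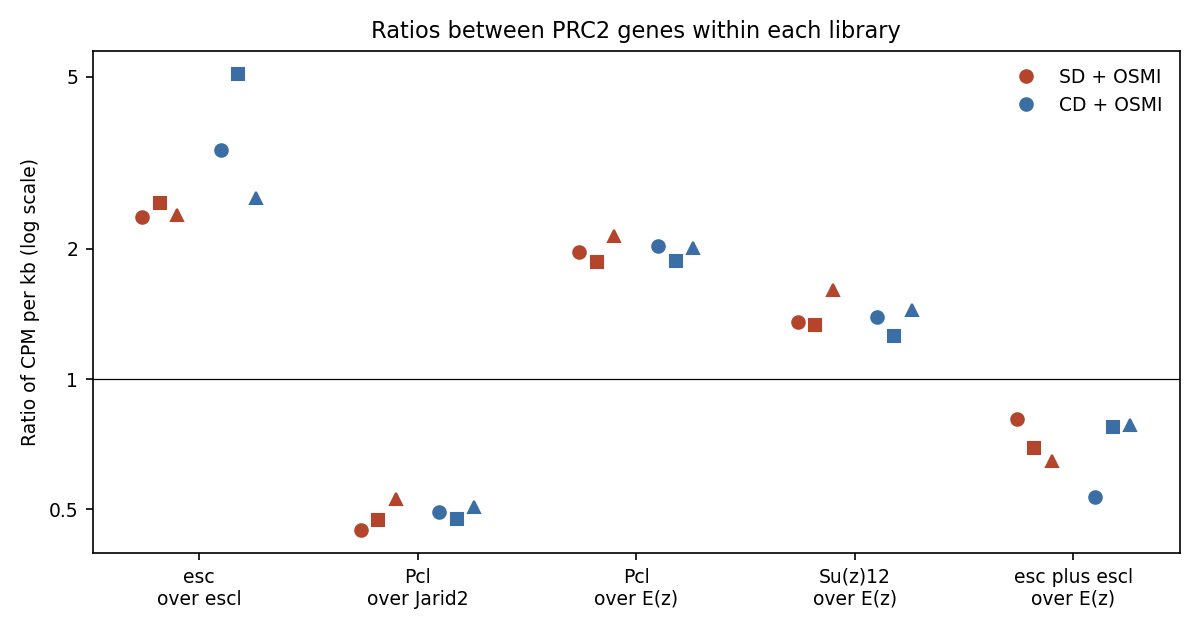
Ratios of levels per length between PRC2 genes within each library, on a log axis with a line at a ratio of 1, SD + OSMI (red, left) and CD + OSMI (blue, right). Circles, squares and triangles are replicates 4 to 6 and 1 to 3. The diets overlap in 4 of the 5 ratios, and *esc* over *escl* is between 2.37 and 2.55 in the SD + OSMI libraries and between 2.63 and 5.08 in the CD + OSMI libraries.

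At most 2.93% of the exonic bases of any of these genes were shared with another counted gene. Reads from the introns of overlapping genes were not examined. No other counted gene overlapped *Pcl*, *Su(z)12* or *Caf1-55*. *esc* lies within *Pde1c* on the same strand, and *jing* spans *CG15233* and 2 non-coding genes on the other strand, with 0 shared exonic bases in each case. Shared exonic bases made up 2.93% of *escl* (53 bases with *dgt2*, same strand), 1.43% of *E(z)* (38 bases with *CG34001*, other strand) and 0.981% of *Jarid2* (83 bases with *pall*, other strand). Whether reads were counted by strand is not given in the sources used here.

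Over the 6 libraries, the tested genes most like *Pcl* in log2 CPM were *AP-2sigma* (Pearson r = 0.994), *Raf* (0.993) and *egl* (0.993), out of 8319 genes with a mean of at least 5 CPM. Those most like *E(z)* were *be* (0.996), *vir* (0.992) and *CG11975* (0.991), and those most like *esc* were *CG14450* (0.996), *ppl* (0.995) and *Sema1b* (0.991). Among the members, *E(z)* was closest to *esc* (0.922) and *Jarid2* to *jing* (0.951), while *Caf1-55* had an r of −0.27 with *Pcl* and −0.53 with *Su(z)12*. These values describe 6 libraries that share diet groups and scaling factors, and with so many genes ranked, values near 1 are reached by genes of many kinds.

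The other genes of the Polycomb system were tested in the same fit. None of 10 genes of PRC1 and its variants was a DEG (a gene past the threshold) by edgeR, and all 10 were practically equivalent. The smallest p values among them belonged to *RYBP* (log2 fold change −0.16, adjusted p = 0.352) and *Psc* (−0.18, adjusted p = 0.391). None of 10 genes of PhoRC, PR-DUB and DNA-binding recruiters was a DEG, and all 10 were equivalent. *pho*, which encodes a DNA-binding recruiter of Polycomb complexes, came nearest, at 60.7 ± 6.54 CPM on SD + OSMI and 72.6 ± 2.56 CPM on CD + OSMI (SD, n = 3 each; log2 fold change −0.26, adjusted p = 0.127 from edgeR), followed by *psq* (−0.14, adjusted p = 0.413). Of these 20 genes, 1 had an unadjusted p under 0.05. Over all tested genes the shares were 9.09% for DEGs, 21.4% for an unadjusted p under 0.05 and 47.1% for practical equivalence. Among genes with at least the summed counts of *Caf1-55* (1201), which all of the 20 except *Sce* and *caly* reached, 82.9% were equivalent.

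Genes that remove or oppose the PRC2 mark included 0 DEGs and 10 practically equivalent genes of 10. The equivalent share was 47.1% of all tested genes and 82.9% of those with at least the summed counts of *Caf1-55*. DEGs were 9.09% of all tested genes. *Utx*, the gene of the H3K27 demethylase, had a log2 fold change of −0.14 (adjusted p = 0.360) and *kis*, the gene of a chromatin remodeler, one of −0.15 (adjusted p = 0.451). Of 17 genes of other complexes that hold Caf1-55 none was a DEG and 13 were equivalent; *Hat1*, a histone acetyltransferase gene, had a log2 fold change of 0.52 (adjusted p = 0.150) and *MBD-like* one of −0.29 (adjusted p = 0.321). The O-GlcNAc genes were both equivalent: *sxc*, which encodes OGT, was at 95.9 ± 6.43 CPM on SD + OSMI and 106.5 ± 7.05 CPM on CD + OSMI (SD, n = 3 each; adjusted p = 0.339 from edgeR), and *Oga* had a log2 fold change of −0.05 (adjusted p = 0.833). Median log2 fold changes were −0.065 for PRC1, −0.097 for the recruiters, −0.079 for the opposing genes and −0.035 for the Caf1-55 complexes, and −0.12 for 9 neuronal genes.

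Among classic targets of Polycomb silencing, 3 of 22 tested genes were higher on SD + OSMI and 2 were lower, against 6.91% and 2.18% of all tested genes, and 6 were practically equivalent. The higher genes were the posterior Hox genes *Abd-B* and *abd-A* and the homeobox gene *cad*. *Abd-B* was at 18.4 ± 1.83 CPM on SD + OSMI and 10.2 ± 3.52 CPM on CD + OSMI (log2 fold change 0.85, SE 0.21, adjusted p = 0.0454), and *abd-A* at 14.4 ± 2.83 and 8.45 ± 2.05 CPM (0.77, SE 0.21, adjusted p = 0.0527; SD, n = 3 each, edgeR). *cad*, named after its values were seen, had a log2 fold change of 0.63 (adjusted p = 0.0960). The lower genes were *Dll*, a gene of appendage development (−0.39, adjusted p = 0.0882), and *toy*, a Pax6 gene of eye development (−0.26, adjusted p = 0.0802), which was also among the practically equivalent genes. The testis, accessory gland, fat body and glial sums given above also differed between the diets without overlap. With the testis sum as a covariate 0 of the 5 calls were left. Over all tested genes that fit made 20 calls, against 1083 without the covariate. Because the testis sum separated the diets fully, its part and that of diet cannot be told apart in this fit. The part of the other sums was not tested. Over all chromatin lists there was 1 call at an adjusted p under 0.05 (edgeR), there were 0 without replicate 2 or 3 of CD + OSMI or replicate 5 or 6 of SD + OSMI, and there were 12 without SD + OSMI replicate 4.

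**Figure D5:**
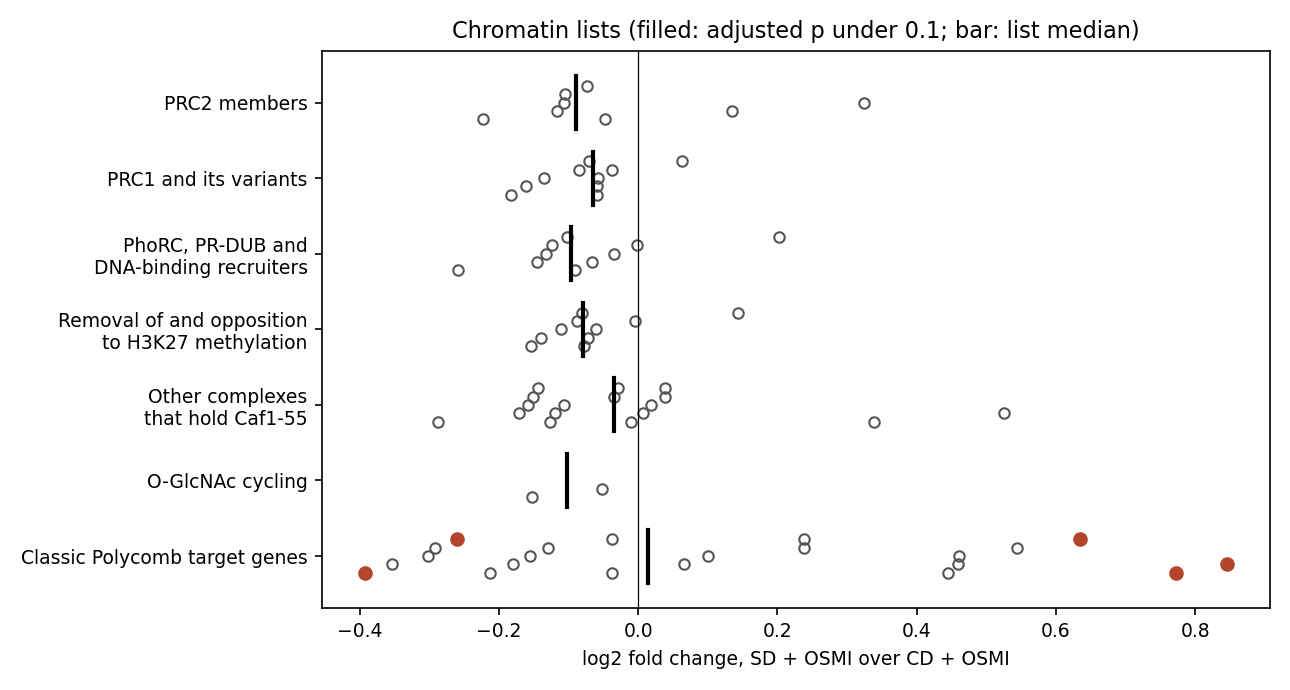
Log2 fold change of each tested gene, SD + OSMI over CD + OSMI, in the PRC2 genes and 6 other chromatin lists, from edgeR (n = 3 libraries per diet). Filled points passed an adjusted p under 0.1 and vertical bars are list medians. All 5 filled points, 3 higher and 2 lower, are among the classic Polycomb target genes.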

How the data were processed

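Reads that passed a quality cutoff were mapped by the authors to dm6 (BDGP6) with STAR, and the authors deposited raw counts per gene from HTSeq, with no normalization. The strand setting, counting mode and annotation release are not given in the sources used here. The 11915 genes that reached 10 counts in 3 or more libraries were tested with edgeR 4.0.16 (TMM, robust quasi-likelihood F test, diet as the only term) at an adjusted p under 0.1. The SE is the size of the log2 fold change divided by the square root of F, and intervals use its degrees of freedom. Equivalence used DESeq2 1.42.0 estimates, limma 3.58.1 gave limma-voom, and R was 4.3.3. Lengths, positions and names came from the Ensembl BDGP6 annotation, which placed 17215 of 17489 genes; 242 of 247 list entries matched. The TMM factors ranged from 0.956 to 1.04. Tests were checked on simulated counts. Replicate pairs differed by 10.6 to 33.1 times sampling noise (chi-square divided by degrees of freedom), so none was counted as 1 sample. The labels call the replicates biological and give no batch.

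Named genes are the 8 members, in each other chromatin list the genes past the threshold (at most 4 by smallest p) or, where there was none, the 2 with the smallest p, *sxc* and *Oga*, and the 3 genes most correlated with *Pcl*, *E(z)* and *esc*. The members and lists were chosen with earlier results of these data known. Alternatives covered other tests, scalings, filters, thresholds, left-out gene sets and libraries, and the testis sum as a covariate. No sequences are shown.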

Additional observations from a re-analysis of the deposited data

How the results depend on the processing

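No PRC2 gene passed the threshold under any alternative run for it: DESeq2, limma-voom, RLE or upper-quartile factors, no filter or at least 50 counts, an adjusted p under 0.05, without the male reproductive, the 20 most abundant or the mitochondrial genes (the last chosen after the data were seen), the testis sum as a covariate, or any 1 library left out. The lowest adjusted p was 0.109, for *jing* without SD + OSMI replicate 4. With the testis sum as a covariate the log2 fold changes turned to 0.064 for *Pcl*, 0.095 for *E(z)*, 0.039 for *Su(z)12*, 0.48 for *esc*, 0.22 for *Jarid2* and 0.21 for *jing*, and those of *escl* and *Caf1-55* moved to 0.62 and 0.23, so that all 8 were above 0. Without CD + OSMI replicate 2 that of *esc* turned to 0.022. The testis sum did not overlap between the diets, and the cause of these turns was not tested. Without 1 library the log2 fold change ranged from −0.43 to 0.022 for *esc*, 0.14 to 0.60 for *escl*, 0.074 to 0.19 for *Caf1-55*, −0.20 to −0.034 for *jing*, −0.14 to −0.0011 for *Jarid2*, −0.17 to −0.031 for *E(z)*, −0.087 to −0.0083 for *Su(z)12* and −0.14 to −0.060 for *Pcl*. The order by level per length could not change with RLE factors or without 1 library, since each gene was above the next in all 6 libraries.

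The number of practically equivalent PRC2 genes was 6, and 0 for a limit of 1.2-fold. The number of DEGs in the other chromatin lists was 5, 1 at an adjusted p under 0.05, 0 with the covariate, and 0 to 12 without 1 library. The number of DEGs over all genes was 1083, 400 at an adjusted p under 0.05, 20 with the covariate, and 76 to 2434 without 1 library. No paired analysis was possible because the diets share no replicate numbers. *esc* and *escl* had the fewest counts, 31 to 177 per library, and a spread between libraries above that of counting alone on both diets.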
